A study of Mus musculus with 13 samples.

Results

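The 10 genes described here carry pyruvate into the mitochondrion and set how much of it becomes acetyl-CoA. They were taken by name from a table of normalized counts for 21868 genes in gastrocnemius, a calf muscle, and all 10 passed the filter on low values that left 12303 genes to test. They are the carrier genes *Mpc1* and *Mpc2*, the pyruvate dehydrogenase genes *Pdha1* and *Pdhb*, the kinase genes *Pdk1*, *Pdk2*, *Pdk3* and *Pdk4*, and the phosphatase genes *Pdp1* and *Pdp2*. RNA was sequenced from 13 male mice, called C57BL/6 in the sample labels and C57BL/6N in the study, which were 7 weeks old when they entered it. All of them had been made obese on a diet with 60 kcal% fat for 15 to 17 weeks and then moved to standard chow. For 3 weeks, 5 mice (numbered 1 to 5) received phosphate-buffered saline as vehicle with placebo, and 5 mice (13 to 17) received semaglutide, a GLP-1 receptor agonist that lowers food intake and body weight, by intraperitoneal injection at 30 nM/kg/day with placebo. A further 3 mice (19, 21 and 22) received the same dose of semaglutide and drank water with 0.114 g/mL of a ketone ester, a compound that the body breaks down to ketone bodies. No mouse was kept lean or left on the high-fat diet, so that every group shares the obesity and the return to chow. The labels name a single batch date for all 13 mice.

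Pyruvate made by glycolysis enters the mitochondrion through a carrier built from MPC1 and MPC2. There the pyruvate dehydrogenase complex turns it irreversibly into acetyl-CoA, which commits carbohydrate carbon to oxidation. Kinases of the PDK family switch the complex off by phosphorylating its E1 alpha subunit, the phosphatases PDP1 and PDP2 switch it on again, and in muscle *Pdk4* in particular is known to rise with fasting and fatty acid supply.

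Between 15319471 and 23498162 reads per mouse were counted on genes. A principal component analysis placed semaglutide mouse 13 apart from its group, at -9.12 on the first component, which held 38.1% of the variance, against 31.8 to 52.5 for the other 4 semaglutide-treated mice. Vehicle-treated mice lay between -24.5 and -12.8, and those given the ketone ester as well as semaglutide lay between -25.6 and -15.8. Muscle fibre genes were abundant in every mouse, as the label of the tissue requires, with a summed normalized count over 7 fibre genes between 1286139 and 2643777. That sum was 1699149 to 2090934 under vehicle, 1286139 to 2110757 under semaglutide and 2179410 to 2643777 with the ketone ester. The ketone ester mice thus lay above all others. Genes of other cell types also moved with the groups. Of 4 fibroblast genes, 3 were lower under semaglutide than under vehicle, and their summed normalized count was 4490 to 6032 under semaglutide, 4924 to 11241 under vehicle and 6253 to 10496 with the ketone ester. Of 5 erythroid genes, 4 were higher with the ketone ester than with semaglutide alone, and their sum ran from 50.5 to 3148 under semaglutide against 2849 to 5558 with the ketone ester. *Myh4*, the myosin of fast 2B fibres, was lower under semaglutide than under vehicle and higher with the ketone ester, with 476031 to 1125064, 930256 to 1254491 and 1319563 to 1552316 normalized counts respectively. The part of these differences in the results on the 10 genes was not tested. In whole muscle, fewer cells of a type and less RNA per cell cannot be told apart.

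Most of the 10 genes were lower under semaglutide. In limma with Benjamini-Hochberg adjustment over all 12303 genes, with a threshold of 0.05, 6 of the 10 genes were lower under semaglutide than under vehicle (*Mpc1*, *Mpc2*, *Pdha1*, *Pdhb*, *Pdk1* and *Pdp1*) and none was higher, while 13.2% of all genes tested were lower, 11.9% higher and 25.1% called in either direction. The median log2 fold change of the 10 genes was -0.52, beside -0.0029 over all genes tested. With the ketone ester added, 5 of the 10 genes were higher than under semaglutide alone (*Mpc1*, *Mpc2*, *Pdha1*, *Pdhb* and *Pdp1*), none was lower, and of all genes 9.09% were higher, 9.30% lower and 18.4% called in either direction. The median log2 fold change over the 10 genes was 0.52, beside -0.00024 over all genes. Between the ketone ester group and vehicle, 0 of the 10 genes differed by limma, by edgeR and by DESeq2, and 1 of the 10, *Pdp1*, had an unadjusted p under 0.05 in limma. That comparison called 0.236% of all genes, 0.0732% higher and 0.163% lower. The first and second comparisons share the semaglutide-treated mice, so that their opposite signs are not separate observations.

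**Figure D1:**
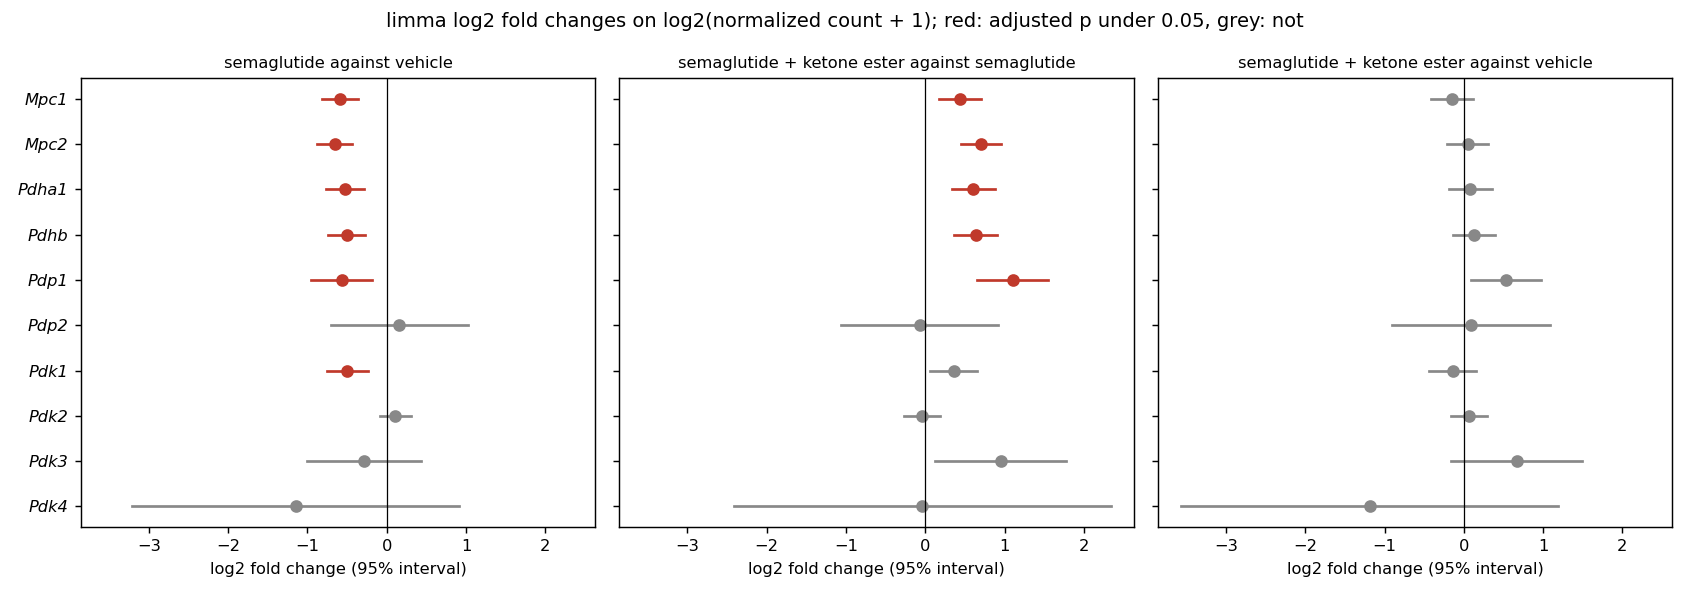
Log2 fold changes of the 10 genes (rows) in the 3 comparisons (panels), on the scale of log2(normalized count + 1), as points with 95% intervals from limma, red where the adjusted p was under 0.05. Semaglutide against vehicle shows 6 red points left of zero, the ketone ester against semaglutide alone 5 red points right of zero, and the third panel none, with wide intervals for *Pdk4* throughout.

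Scaling matters for these counts. When every mouse was scaled to the same total, the median of all genes moved by 0.17 on the log2 scale for semaglutide against vehicle and by -0.24 for the ketone ester against semaglutide, and the split of all calls went from 1459 higher and 1625 lower to 3262 and 929 in the first, and from 1118 and 1144 to 611 and 3587 in the second. Under that scaling *Mpc1*, *Mpc2*, *Pdha1*, *Pdhb* and *Pdk1* were still lower under semaglutide, *Pdp1* was not called (adjusted p = 0.0645) and *Pdk2* was called higher (0.28 on the log2 scale, or 0.11 above the shift of all genes). In the second comparison *Mpc2*, *Pdha1*, *Pdhb* and *Pdp1* were still higher, *Mpc1* was not called (adjusted p = 0.165) and *Pdk2* was called lower at -0.27, or -0.039 beyond the shift.

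Both carrier genes were low in every semaglutide-treated mouse. *Mpc1* (chromosome 17, 8282904 to 8297661, plus strand, GRCm38, the same build as mm10) had 2902, 2657, 2419, 2698 and 2574 normalized counts in vehicle-treated mice 1 to 5, 1578, 2131, 1766, 1475 and 1930.4 in semaglutide-treated mice 13 to 17, and 2184, 2429 and 2573 in semaglutide + ketone ester-treated mice 19, 21 and 22. The semaglutide-treated mice lay below every mouse of both other groups, and the ketone ester group overlapped with vehicle. Its log2 fold change under semaglutide was -0.59 (SE 0.11, limma adjusted p = 0.0026), and the ketone ester group exceeded semaglutide alone by 0.44 (SE 0.12, limma adjusted p = 0.0267). The second call was lost without semaglutide + ketone ester mouse 21 (adjusted p = 0.0918) or mouse 22 (0.114), and in a fit of those 2 groups only (0.0976). *Mpc2* (chromosome 1, 165460637 to 165481214, plus strand) had 3131, 2891, 3096, 3099 and 3279 normalized counts under vehicle, 2296, 2033, 2119, 1665 and 1787 under semaglutide, and 3036, 2917 and 3725 with the ketone ester. Again the semaglutide-treated mice stood below all others, without overlap. *Mpc2* was -0.65 lower on the log2 scale under semaglutide (SE 0.10, limma adjusted p = 0.0013) and 0.71 higher with the ketone ester than with semaglutide alone (SE 0.12, limma adjusted p = 0.0031). Each call on *Mpc2* held whichever mouse was left out.

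The subunits of the E1 enzyme, which decarboxylates pyruvate, moved with the carriers. *Pdha1* (chromosome X, 160122209 to 160138413, minus strand) encodes the alpha subunit that the kinases phosphorylate, and *Pdhb* (chromosome 14, 8165996 to 8173025, minus strand) the beta subunit. Their promoters are shown because both genes moved together while their windows differ in the number of CCAAT boxes. These are RefSeq windows on GRCm38.p6, from 250 bases before to 50 bases after an annotated start, written 5′ to 3′ on the minus strand, with CCAAT boxes in capitals, which appear as ATTGG where the match is on the other strand. The *Pdha1* window (chrX:160138381-160138680) holds 0 CCAAT boxes and the *Pdhb* window (chr14:8172943-8173242) 3, beginning at -101, -60 and -12 from the start.
Pdha1: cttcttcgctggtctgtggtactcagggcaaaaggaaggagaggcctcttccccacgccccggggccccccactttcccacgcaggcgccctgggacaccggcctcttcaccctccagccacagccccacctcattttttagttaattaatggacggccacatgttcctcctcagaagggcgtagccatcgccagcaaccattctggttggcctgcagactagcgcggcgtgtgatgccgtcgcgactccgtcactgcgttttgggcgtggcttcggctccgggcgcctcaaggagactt
Pdhb: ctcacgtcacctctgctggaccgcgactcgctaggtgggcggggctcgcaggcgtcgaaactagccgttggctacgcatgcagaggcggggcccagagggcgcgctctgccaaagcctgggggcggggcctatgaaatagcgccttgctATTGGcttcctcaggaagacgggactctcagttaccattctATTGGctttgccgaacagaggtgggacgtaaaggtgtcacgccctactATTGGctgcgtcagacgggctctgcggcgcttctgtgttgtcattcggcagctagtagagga

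Among all 32817 promoter windows of this length, 37.4% hold a CCAAT match on either strand, and this motif was added to the search after the sequences had been seen. The match is a description of letters and not of a bound factor.

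*Pdha1* had 12912, 12162, 12366, 14222 and 13040.3 normalized counts in vehicle-treated mice, 8779, 9395, 9643, 7842 and 9331 in semaglutide-treated mice, and 10964, 13949 and 16676 with the ketone ester. Every semaglutide-treated mouse was below every mouse of the other groups, and the 3 ketone ester mice spread around the vehicle values, with mouse 19 below and mouse 22 above all 5. The log2 fold change was -0.53 under semaglutide (SE 0.11, limma adjusted p = 0.0055) and 0.61 for the ketone ester against semaglutide alone (SE 0.13, limma adjusted p = 0.0079). The second call was lost in a fit of those 2 groups only (adjusted p = 0.0529). *Pdhb* had 3077, 2797, 2778, 2967 and 3004 normalized counts under vehicle, 2516, 2178, 2115, 1713 and 1861 under semaglutide, and 2762, 3414 and 3459.8 with the ketone ester. Here too semaglutide did not overlap with either group, although mouse 13 was the nearest to vehicle. The log2 fold changes were -0.51 (SE 0.11, limma adjusted p = 0.0065) and 0.63 (SE 0.12, limma adjusted p = 0.0063). The carriers and both E1 genes are the 4 of 10 whose semaglutide-treated mice all lay below the vehicle-treated mice, a pattern that 7.45% of all genes showed in that direction, 7.22% in the other and 14.7% in either. None of the 10 genes had all semaglutide-treated mice above vehicle. Part of *Pdha1* overlaps *Map3k15* on the opposite strand, and although the libraries were stranded, use of strand in counting is not given in the sources used here.

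**Figure D2:**
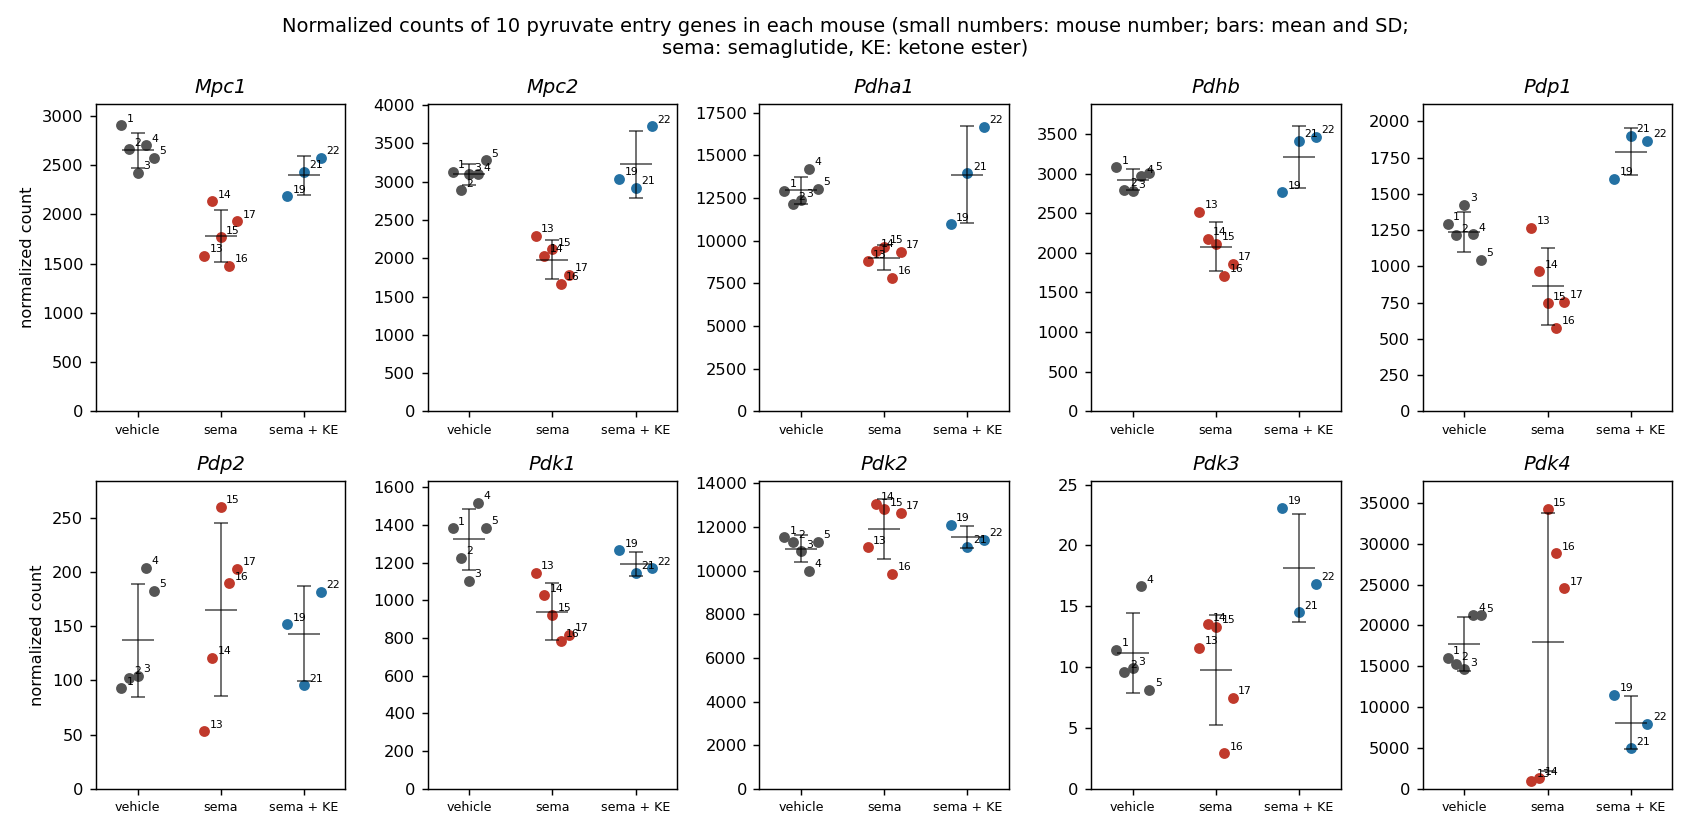
Normalized counts (vertical axes, linear from 0) of the 10 genes in each of the 13 mice, with mouse numbers beside the points and bars for the mean and SD of 5 vehicle-treated, 5 semaglutide-treated (sema) and 3 semaglutide + ketone ester-treated (sema + KE) mice. *Mpc1*, *Mpc2*, *Pdha1* and *Pdhb* dip in all 5 semaglutide-treated mice, whereas *Pdk4* under semaglutide runs from 978 to 34233.

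Of the 4 kinase genes, *Pdk2* and *Pdk4* supplied nearly all transcripts. Per kilobase of the principal transcript, the mean in vehicle-treated mice was 4903 ± 274 normalized counts for *Pdk2* and 5085 ± 948 for *Pdk4* (SD, n = 5), against 255 ± 31.0 for *Pdk1* and 5.27 ± 1.55 for *Pdk3*. The order of *Pdk2* and *Pdk4* could not be separated by these levels, whose ranges overlapped, and it also depended on the length used: with all annotated exons merged, *Pdk4* exceeded *Pdk2* 1.21 to 1.92 times in the 5 vehicle-treated mice. The promoters of *Pdk2* and *Pdk4* are shown because these genes supply most of the kinase transcripts yet differed widely in spread between mice. The *Pdk2* window (chr11:95041322-95041621, minus strand, the more upstream of its annotated starts) holds 3 CCAAT boxes, beginning at -105, -73 and -42 from the start, and the *Pdk4* window (chr6:5496229-5496528, minus strand) holds 1, beginning at -131. Capitals again mark the boxes.
Pdk2: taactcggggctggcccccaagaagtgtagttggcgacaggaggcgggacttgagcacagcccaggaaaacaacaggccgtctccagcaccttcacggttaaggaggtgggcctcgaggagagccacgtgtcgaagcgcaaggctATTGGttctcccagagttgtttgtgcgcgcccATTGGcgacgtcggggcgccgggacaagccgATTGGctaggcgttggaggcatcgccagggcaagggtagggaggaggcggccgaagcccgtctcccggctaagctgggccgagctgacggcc
Pdk4: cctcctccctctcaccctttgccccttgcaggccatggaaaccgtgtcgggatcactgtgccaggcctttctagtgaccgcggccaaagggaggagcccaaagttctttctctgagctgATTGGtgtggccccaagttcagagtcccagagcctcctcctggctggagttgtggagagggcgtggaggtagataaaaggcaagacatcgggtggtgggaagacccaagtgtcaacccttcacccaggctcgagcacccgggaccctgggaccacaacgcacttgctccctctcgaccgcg

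The windows were also searched on both strands for AGGTCA, a single site of nuclear receptors such as PPAR and ERR, for AGGTCANAGGTCA, its direct repeat, and for GTAAACA, a core bound by FOXO factors. RefSeq had 12 windows for 9 of the 10 genes. None held the repeat or the FOXO core, which occur in 0.0396% and 3.65% of all promoters, and 1, that of a downstream start of *Mpc1*, held that site, which occurs in 16.3%. The absence says only that these letters are not in these windows.

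*Pdk4* varied among semaglutide-treated mice more than any other gene of the 10. Its normalized counts were 16065, 15281, 14647, 21344 and 21243 in vehicle-treated mice 1 to 5. In semaglutide-treated mice 13 to 17 they were 978, 1273, 34233, 28847 and 24557. With the ketone ester they were 11475, 4938 and 7942 in mice 19, 21 and 22. Mice 13 and 14 fell far below every vehicle-treated mouse and mice 15, 16 and 17 rose above every one, so that the highest semaglutide-treated mouse exceeded the lowest 35.0 times, against 1.46 times within vehicle. These values rest on 1011 to 32922 reads per mouse. The group means were close, 17716 ± 3305 (SD, n = 5) under vehicle and 17978 ± 15762 (SD, n = 5) under semaglutide, while the log2 fold change was -1.15 (SE 0.95, 95% interval -3.21 to 0.91, limma adjusted p = 0.401). In the count models the same fold change was 0.037 in edgeR and 0.032 in DESeq2, so that the mean effect of semaglutide on *Pdk4* had no settled sign. All 3 ketone ester mice were below all 5 vehicle-treated mice, with a mean of 8118 ± 3272 (SD, n = 3), as was the case for 5.88% of all genes in this comparison and 11.3% in either direction. The log2 fold change from vehicle was -1.19 (SE 1.09, 95% interval -3.56 to 1.19) and did not pass in limma (adjusted p = 0.799). That SE rests on a spread estimated over all 3 groups, including the semaglutide-treated mice, which are not part of this comparison. The SD of the log2 values was 0.26 under vehicle, 0.61 with the ketone ester and 2.58 under semaglutide. A fit of the ketone ester and vehicle groups only called 0 of the 10 genes, and 24 of all 12303. Against semaglutide alone the ketone ester group sat in the gap between the low and the high mice, at -0.039 on the log2 scale (SE 1.09, limma adjusted p = 0.986). Leaving out each mouse in turn moved that value between -0.79 and 0.49.

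On the first principal component mice 13 and 14, the low ones in *Pdk4*, had the lowest scores of their group, -9.12 and 31.8, and mice 15, 16 and 17 scored 41.4, 52.5 and 47.9. The reads on genes were 18566905 and 15459667 in mice 13 and 14 and 16295209, 15319471 and 23498162 in mice 15, 16 and 17. Adipocytes express *Pdk4* too, and the summed normalized count of 6 adipocyte genes was 3115 in mouse 13, 1763 in mouse 14, 2512 in mouse 15, 19452 in mouse 16 and 3785 in mouse 17. The part of these measures in the *Pdk4* values was not tested.

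*Pdk2*, the kinase gene expressed in most tissues, had the narrowest range of the 10 over all 13 mice. It had 11531, 11326, 10876, 9996 and 11328 normalized counts under vehicle, 11071, 13055, 12804, 9861 and 12653 under semaglutide, and 12086, 11094 and 11415 with the ketone ester. The 3 groups overlapped. The log2 fold change under semaglutide was 0.10 (95% interval -0.091 to 0.30, limma adjusted p = 0.426), and for the ketone ester against semaglutide alone it was -0.037 (95% interval -0.26 to 0.19, limma adjusted p = 0.835). A change beyond 0.30 on the log2 scale in either direction thus lay outside these intervals, although *Pdk2* was called under semaglutide after quantile normalization (adjusted p = 0.0391) and with equal totals (0.0153).

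*Pdk1*, a kinase gene known as a target of HIF-1, fell modestly under semaglutide. It had 1382, 1224, 1104, 1518 and 1386 normalized counts under vehicle, 1146, 1027, 924, 784 and 817 under semaglutide, and 1264, 1146 and 1169 with the ketone ester. Semaglutide mouse 13 overlapped with the lowest vehicle-treated mouse, and the other 4 lay below all vehicle-treated mice. The log2 fold change was -0.50 (SE 0.12, limma adjusted p = 0.0113). The ketone ester group exceeded semaglutide alone by 0.36 (SE 0.14), which missed the threshold (limma adjusted p = 0.0872) but passed without semaglutide mouse 13 (adjusted p = 0.0220). It also passed in limma after quantile normalization (adjusted p = 0.0426) and with sample weights (0.0242). *Pdk3* was barely expressed, with 2.91 to 16.6 normalized counts in vehicle-treated and semaglutide-treated mice and 14.5 to 23.1 with the ketone ester, from 3 to 19 reads. All 3 ketone ester values exceeded all 5 semaglutide values, and the log2 difference of 0.95 (SE 0.38) did not pass (limma adjusted p = 0.0984). In the comparison of the ketone ester with semaglutide alone, the ketone ester mice were all above in 7 of the 10 genes (the 5 called, *Pdk1* and *Pdk3*) and all below in none, which was the case for 9.96% and 10.2% of all genes, or 20.1% in either direction.

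The make-up of the kinase transcripts therefore differed from mouse to mouse. Per kilobase, *Pdk4* made up 45.4% to 56.3% of the 4 kinases in vehicle-treated mice. It made up 5.16% in semaglutide mouse 13, 5.73% in mouse 14, 62.5% in mouse 15, 64.6% in mouse 16 and 54.9% in mouse 17. With the ketone ester the share was 36.9%, 21.5% and 30.0%. The ketone ester mice were thus all below vehicle, and the semaglutide-treated mice lay on both sides of it. With all annotated exons merged in place of the principal transcript, the shares were 53.8% to 64.4% under vehicle, 7.08% to 71.8% under semaglutide and 27.8% to 45.0% with the ketone ester, with the groups in the same positions. *Pdk1* held 2.30% to 2.69% under vehicle and *Pdk3* never more than 0.122%.

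**Figure D3:**
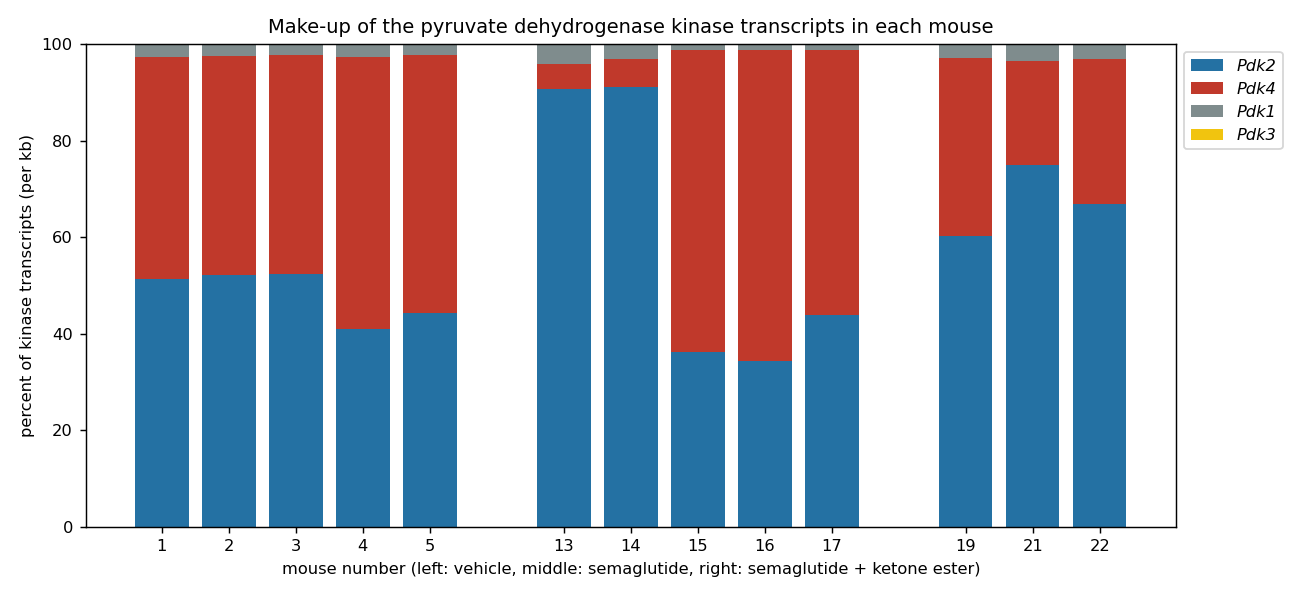
Share of each kinase gene in the summed kinase transcripts per kilobase (vertical axis, percent) in each mouse (horizontal axis, vehicle left, semaglutide middle, semaglutide + ketone ester right). The *Pdk4* share is 5.16% and 5.73% in semaglutide mice 13 and 14 and between 54.9% and 64.6% in mice 15 to 17.

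Set against the enzyme they act on, the summed kinase transcripts per kilobase were 2.13 to 2.49 times those of *Pdha1* in vehicle-treated mice. Under semaglutide this ratio was 1.76 and 1.93 in mice 13 and 14 and 4.64, 4.66 and 3.92 in mice 15, 16 and 17. With the ketone ester it was 2.32, 1.34 and 1.30. Mice 15 to 17 thus combined more *Pdk4* with less *Pdha1*, and their ratios exceeded those of the other 10 mice. The ratio of *Pdha1* to *Pdhb* stayed within 1.85 and 2.66 across all 13 mice, and that of *Mpc1* to *Mpc2* within 0.736 and 1.16. The level of both ratios depends on the length used. With all annotated exons merged they ran from 3.61 to 5.18 and from 2.42 to 3.81. Transcript ratios do not measure phosphorylation or activity of the complex.

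Of the phosphatase genes, *Pdp1* was called in 2 comparisons and *Pdp2* in none, and the difference between these genes was not tested. *Pdp1* (chromosome 4, 11958184 to 11966452, minus strand), whose product is the calcium-activated phosphatase of muscle, had 1292, 1215, 1424, 1222 and 1046 normalized counts under vehicle, 1265, 966, 746, 578 and 754 under semaglutide, and 1604, 1901 and 1865 with the ketone ester. The ketone ester mice stood above every other mouse, and semaglutide mouse 13 lay within the vehicle range. The log2 fold change for the ketone ester against semaglutide alone was 1.10 (SE 0.20, limma adjusted p = 0.0047), the greatest size of any called difference among the 10 genes, and it passed whichever mouse was left out. Under semaglutide *Pdp1* was -0.57 lower on the log2 scale than under vehicle (SE 0.18, limma adjusted p = 0.0345). That call was lost in 7 of 13 fits that left out 1 mouse: vehicle mouse 1 (adjusted p = 0.0672), 2 (0.0618), 3 (0.0785) or 4 (0.0635), or semaglutide mouse 15 (0.0776), 16 (0.0648) or 17 (0.0798). It was also lost without a filter (0.0570) and in a fit of those 2 groups only (0.0580). Against vehicle the ketone ester group was 0.53 higher on the log2 scale (SE 0.20, 95% interval 0.090 to 0.98), with all 3 mice above all 5, which 5.45% of all genes showed, but it did not pass adjustment (limma adjusted p = 0.368).

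*Pdp2*, the insulin-responsive phosphatase gene, had 92.7, 102, 104, 204 and 183 normalized counts under vehicle, 53.2, 121, 259.9, 189 and 203 under semaglutide, and 152, 95.4 and 181 with the ketone ester. Mouse 13 was the lowest and mouse 15 the highest of all 13, and the groups overlapped. The log2 fold change was 0.16 under semaglutide (SE 0.40, limma adjusted p = 0.798) and -0.072 for the ketone ester against semaglutide alone (SE 0.46, limma adjusted p = 0.930). Per kilobase, *Pdp1* made up 79.6% to 97.0% of the summed phosphatase transcripts in every mouse. *Pdpr*, the regulatory subunit that holds PDP1 back, fell under semaglutide by 0.53 on the log2 scale (SE 0.080, limma adjusted p = 0.0010) and was 0.46 higher with the ketone ester than with semaglutide alone (SE 0.092, limma adjusted p = 0.0065), a call lost with equal totals (0.0628) and in a fit of those 2 groups only (0.0524).

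The study's own criterion asks for an unadjusted p under 0.05 in a one-way analysis of variance across the 3 groups and for group means that differ at least 1.5-fold. It was met by 5 of the 10 genes (*Pdk3*, *Pdp1*, *Pdha1*, *Pdhb* and *Mpc2*), which are called altered here, and by 16.1% of all genes tested. *Mpc1* stood just outside with a ratio of group means of 1.49, and *Pdha1* and *Pdhb* just inside at 1.54 and 1.55. *Pdk1* had a ratio of 1.41. Scaling to equal totals left 1 of the 10 altered, leaving out semaglutide mouse 16 left 3, and leaving out semaglutide + ketone ester mouse 22 left 2.

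Of 9 genes for the other subunits, related complexes and the lipoyl cofactor, 6 were lower under semaglutide than under vehicle (13.2% of all genes were) and 5 higher with the ketone ester than with semaglutide alone (9.09% of all genes were), with medians of -0.41 and 0.46 on the log2 scale. *Dlat*, the E2 acetyltransferase at the core of the complex, had 2839 to 3547 normalized counts under vehicle, 1682 to 2308 under semaglutide and 2934 to 4102 with the ketone ester. Its log2 fold changes were -0.73 (SE 0.12, limma adjusted p = 0.0014) and 0.87 (SE 0.13, limma adjusted p = 0.0025). *Pdhx*, which anchors E3 to the core, changed by -0.64 (limma adjusted p = 0.0020) and 0.76 (limma adjusted p = 0.0030). *Dld*, the E3 dehydrogenase shared with other complexes, fell by 0.41 (limma adjusted p = 0.0050), and its rise of 0.41 with the ketone ester (limma adjusted p = 0.0128) was lost without mouse 21 (adjusted p = 0.0567) or mouse 22 (0.0723). *Dlst*, the E2 of the oxoglutarate dehydrogenase complex, was -0.39 lower on the log2 scale under semaglutide (limma adjusted p = 0.0190) and 0.53 higher with the ketone ester (limma adjusted p = 0.0120, and 0.0692 without mouse 22). The sixth lower gene, *Lipt2*, a lipoyl transferase, was at -0.45 (limma adjusted p = 0.0359), a call lost without vehicle mouse 1, 2, 4 or 5 or semaglutide mouse 14 or 15, with an adjusted p of up to 0.0782, and also lost by edgeR (0.0715), by DESeq2 (0.0712), without a filter (0.0597) and with equal totals (0.189). The ketone ester calls on *Dld* and *Dlst* were lost with equal totals (0.140 and 0.0700) and in fits of the 2 groups compared (0.0675 and 0.0542).

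Genes for other fates of pyruvate and lactate changed in part. Of 14 such genes, 5 were lower under semaglutide (13.2% of all genes were) and 3 higher with the ketone ester than with semaglutide alone (9.09% of all genes were), with medians of -0.46 and 0.33 on the log2 scale. *Pkm*, the pyruvate kinase of muscle, had 55156 normalized counts in semaglutide mouse 13 and 18996 to 30678 in the other 4, against 52719 to 58543 under vehicle and 59503 to 75912 with the ketone ester. Mouse 13 was thus at the vehicle level for *Pkm* while its *Mpc1*, *Mpc2*, *Pdha1* and *Pdhb* were below. *Pkm* was at -0.94 under semaglutide (limma adjusted p = 0.0110) and 1.23 higher with the ketone ester than without (limma adjusted p = 0.0084, and 0.0549 in a fit of those 2 groups only). *Ldhb*, the lactate dehydrogenase subunit of oxidative tissues, was at -1.07 (limma adjusted p = 0.0120) under semaglutide. *Ldhd*, which oxidises D-lactate, was at -0.88 (limma adjusted p = 0.0010) and 0.82 (limma adjusted p = 0.0050). *Gpt*, which exchanges pyruvate with alanine, was at -0.77 (limma adjusted p = 0.0055) and 0.93 (limma adjusted p = 0.0063). *Me3*, a mitochondrial malic enzyme, was at -0.30 (limma adjusted p = 0.0423), a call lost in 11 of 13 fits that left out a mouse, all but those without semaglutide mouse 13 or 15 (up to 0.0954), and also without a filter (0.0713), with equal totals (0.230) and in a fit of those 2 groups only (0.0699).

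Of 12 transcription factors and coactivators known to act on *Pdk4*, 1 was higher and 4 were lower under semaglutide than under vehicle, beside 11.9% and 13.2% of all genes. With the ketone ester 1 was higher and 3 were lower than with semaglutide alone, beside 9.09% and 9.30%, and 1 was lower than under vehicle, beside 0.163%. *Ppard*, the fatty acid receptor PPAR delta, had 589.9 to 796 normalized counts under vehicle, 922 to 1134 under semaglutide and 617 to 770.3 with the ketone ester, without overlap between semaglutide and either group. It was 0.47 higher under semaglutide (limma adjusted p = 0.0075) and -0.48 lower with the ketone ester than without (limma adjusted p = 0.0174, and 0.0921 without semaglutide + ketone ester mouse 21). *Foxo1*, a factor activated when insulin signalling is low, had 1175 to 2745 normalized counts under vehicle, 621 to 1122 under semaglutide and 302 to 553 with the ketone ester, so that the groups did not overlap. *Foxo1* was at -1.03 (limma adjusted p = 0.0177) under semaglutide and at -2.12 from vehicle with the ketone ester (limma adjusted p = 0.0285), and a further -1.09 below semaglutide alone (limma adjusted p = 0.0330). The second of these calls was lost in 5 of 13 fits that left out a mouse, vehicle mouse 1, 2 or 3 or semaglutide + ketone ester mouse 21 or 22 (adjusted p up to 0.162). The third was lost without semaglutide mouse 15, 16 or 17 or semaglutide + ketone ester mouse 21 or 22 (up to 0.131). *Esrra*, the estrogen-related receptor ERR alpha of oxidative genes, had 1369 and 1341 normalized counts in semaglutide mice 13 and 14, 799, 798 and 800.4 in mice 15, 16 and 17, 1596 to 1800.0 under vehicle and 1433 to 1882 with the ketone ester. The semaglutide-treated mice that were low in *Pdk4* were thus the higher ones in *Esrra*, and also in *Rxra* of the same list (5337 and 4630 against 3461 to 4197). They were the lower ones in *Foxo1* (621 and 673 against 810 to 1122) and in *Foxo3* (775 and 867 against 985 to 1186). In the rest of the list mice 13 and 14 overlapped with mice 15 to 17. The part of these genes in the *Pdk4* values was not tested. *Esrra* was at -0.78 (limma adjusted p = 0.0071) under semaglutide and 0.72 higher with the ketone ester (limma adjusted p = 0.0263), the latter lost without semaglutide mouse 15 or 17 or any of the 3 ketone ester mice (adjusted p up to 0.117). The glucocorticoid receptor gene *Nr3c1* was at -0.74 (limma adjusted p = 0.0048) under semaglutide. *Ppara*, the PPAR alpha gene, was at -1.03 (limma adjusted p = 0.0370), lost without vehicle mouse 1, 2, 4 or 5 or semaglutide mouse 13, 15, 16 or 17 (up to 0.0891), and *Foxo3* was at -0.53 with the ketone ester against semaglutide alone (limma adjusted p = 0.0465), lost in 11 of 13 fits, all but those without semaglutide mouse 13 or ketone ester mouse 19 (up to 0.181). Without a filter the calls on *Ppara* (0.0597), on *Foxo3* (0.0766) and on *Foxo1* against semaglutide (0.0553) and against vehicle (0.0599) were lost. Equal totals lost *Ppara* (0.0633) and the ketone ester call on *Esrra* (0.0670), and quantile normalization lost *Foxo3* (0.0549). Fits of the 2 groups compared lost the ketone ester calls on *Esrra* (0.1001), *Foxo3* (0.124) and *Ppard* (0.0541) against semaglutide and on *Foxo1* against vehicle (0.0542).

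**Figure D4:**
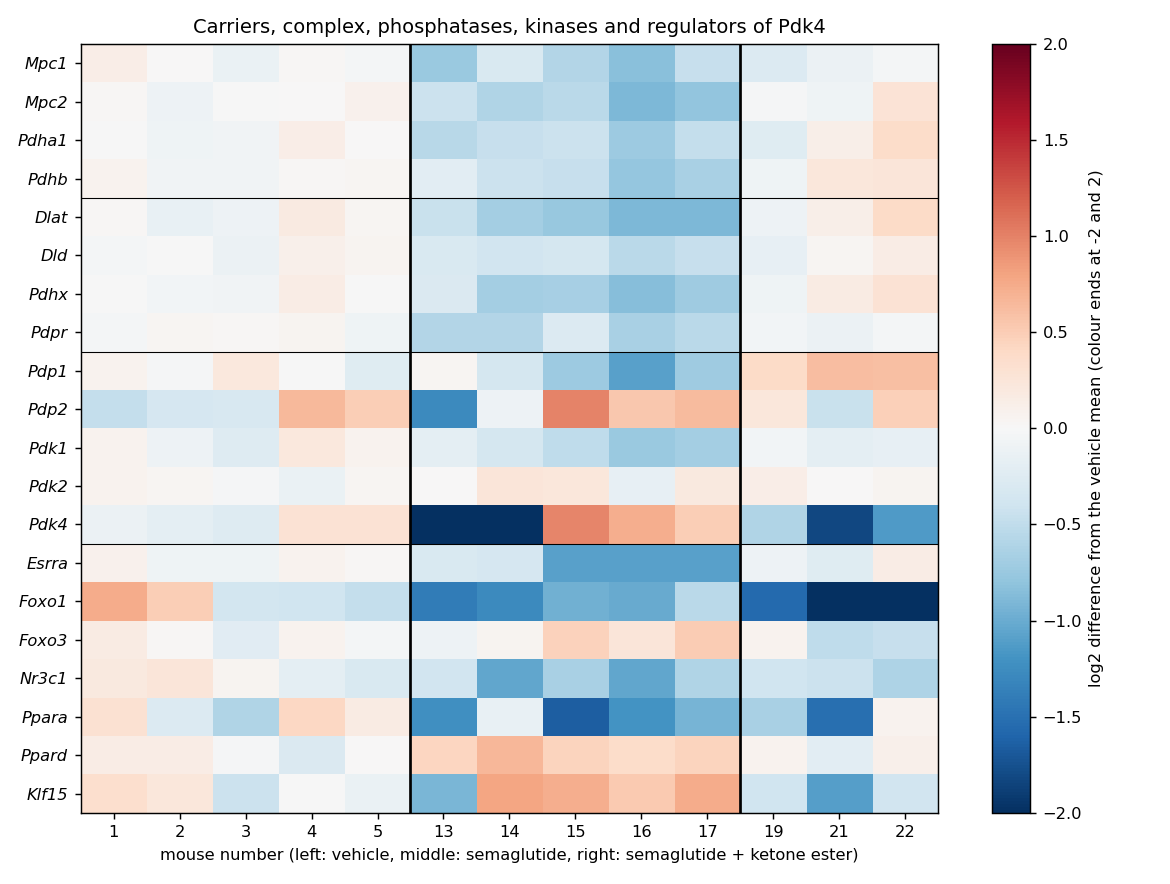
Log2 difference of each mouse (columns, numbered, vehicle left, semaglutide middle, semaglutide + ketone ester right) from the vehicle mean for carriers and E1, other subunits with *Pdpr*, phosphatases with kinases, and regulators of *Pdk4* (rows, separated by lines), with blue for lower and red for higher and colours ending at -2 and 2. The carrier and complex rows are blue across semaglutide-treated mice 13 to 17, while the *Pdk4* row changes from blue in mice 13 and 14 to red in mice 15 to 17.

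The genes whose pattern over the 13 mice was most like that of *Pdk4*, by the root mean square difference of log2 values centred on vehicle, were *Angptl4* (0.575), *Ucp3* (0.838), *Plin5* (0.858), *Slc25a34* (0.899) and *Acot2* (0.917). *Angptl4*, an inhibitor of lipoprotein lipase that fatty acids induce through PPARs, had 22.2 and 15.8 normalized counts in semaglutide mice 13 and 14 and 333, 626 and 313 in mice 15, 16 and 17. It had 171 to 390.0 under vehicle and 44.7 to 95.9 with the ketone ester. The split of mice 13 and 14 from the rest of the group and the position of the ketone ester mice below vehicle were thus the same as for *Pdk4*. *Ucp3*, a mitochondrial carrier of muscle known to rise with fasting, had 1072 and 429 in mice 13 and 14 and 2666 to 4256 in mice 15 to 17, all below the vehicle range of 4428 to 5854. *Acot2*, a mitochondrial thioesterase, had 104 and 125 against 1237 to 1427.

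**Figure D5:**
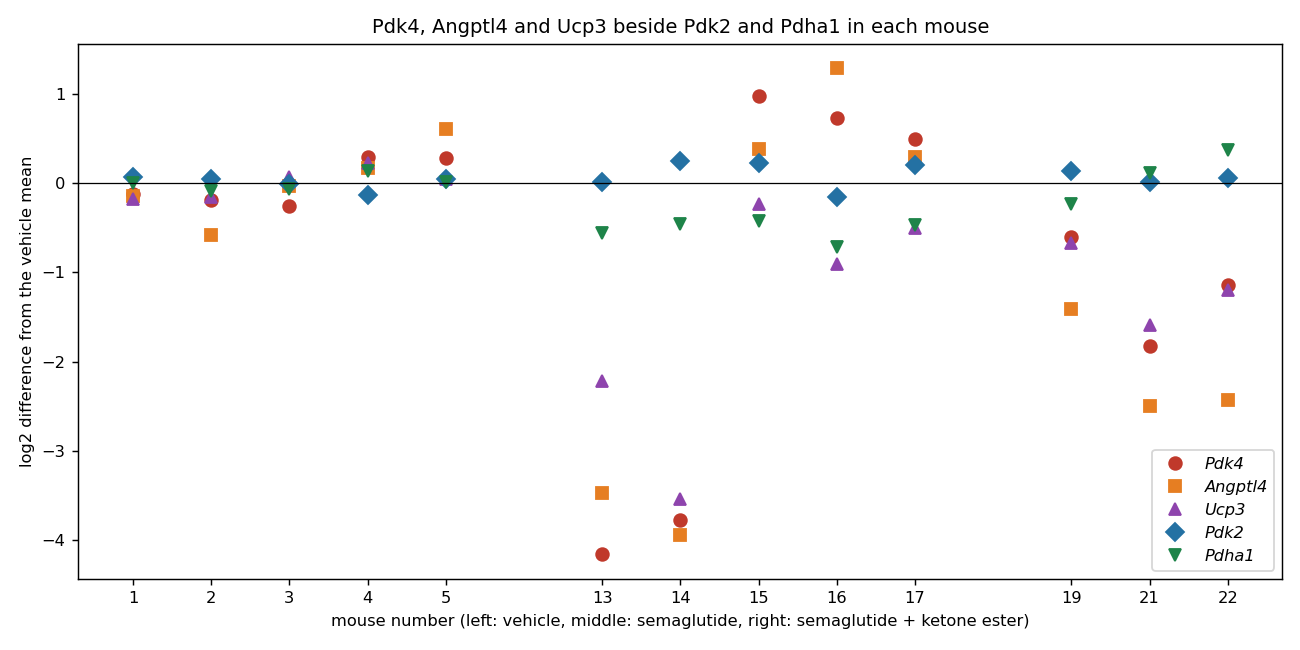
Log2 difference from the vehicle mean (vertical axis) of *Pdk4*, *Angptl4*, *Ucp3*, *Pdk2* and *Pdha1* in each mouse (horizontal axis, vehicle left, semaglutide middle, semaglutide + ketone ester right). *Pdk4*, *Angptl4* and *Ucp3* drop together in semaglutide mice 13 and 14, *Pdk2* stays near zero, and *Pdha1* is below zero in all 5 semaglutide-treated mice.

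Of 14 genes of the fasting response, chosen as PPAR targets of muscle, 1 was called under semaglutide (25.1% of all genes were called), *Acot1*, a cytosolic thioesterase, with 26.1, 128, 437, 560.3 and 622 normalized counts in mice 13 to 17 against 24.1 to 68.7 under vehicle. Its log2 fold change was 2.33 (limma adjusted p = 0.0357), lost without any 1 of the 5 vehicle-treated mice or of semaglutide mice 15, 16 and 17 (adjusted p up to 0.0902). With the ketone ester *Acot1* was at 16.9 to 32.8, or -3.16 from semaglutide alone (limma adjusted p = 0.0232, up to 0.0918 without semaglutide mouse 15 or 17 or ketone ester mouse 21 or 22, which lost the call). Fits of the 2 groups compared lost both calls (adjusted p = 0.0602 and 0.0862), and a fit without a filter lost the first (0.0577). For the ketone ester against vehicle the median log2 fold change of the 14 genes was -0.48, beside -0.0059 over all genes, and all 14 were negative. The 14 include *Angptl4*, *Ucp3* and *Acot2*, named above for their likeness to *Pdk4*, and were listed with earlier results of these data known. Their shared sign is therefore a description and not a test. In 4 of the 14 all ketone ester mice lay below all vehicle-treated mice and in 0 above, beside 5.88% and 5.45% of all genes. None was called, and the lowest adjusted p in limma was 0.492, for *Cpt1a*, the carnitine palmitoyltransferase gene. The spread behind that value includes the semaglutide-treated mice.

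For *Pdha1* the 5 most similar genes were *Cox4i1* (0.0684), *Sdha* (0.0829), *Idh3b* (0.0832), *Cox7b* (0.0866) and *Uqcrfs1* (0.0868), all encoding parts of the respiratory chain or the tricarboxylic acid cycle. *Sdha*, the flavoprotein of succinate dehydrogenase, had 14262 to 16632 normalized counts under vehicle, 10331 to 12243 under semaglutide and 14909.9 to 19731 with the ketone ester. As for *Pdha1*, all 5 semaglutide-treated mice were below all others and mouse 22 was the highest of the 13. These distances are smaller than those found around *Pdk4*, whose values spread more widely, and they carry no test.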

How the data were processed

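RNA from the gastrocnemius of 13 mice was sequenced as stranded mRNA libraries, with paired-end reads. Per the labels and the study's methods, the authors aligned reads to mm10 with DRAGEN, and DESeq2 is listed in the submitters' processing notes. The read counter, the annotation and the versions are not given in the sources used here. The deposited signal values are normalized counts per gene, 1 column per mouse. In each column all values are multiples of what 1 read is worth. Dividing by it gave whole reads for 100% of values (tolerance 0.01), and these steps were within 1.33% of median-of-ratios size factors calculated from those reads. No pooling was applied.

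Genes with a mean of at least 10 normalized counts (12303 of 21868) were tested on log2(normalized count + 1), which understates the change of low genes, with limma 3.58.1 in R 4.3.3 and all 3 groups in a single model, two-sided, with Benjamini-Hochberg adjustment and a threshold of 0.05. Standard errors and 95% intervals come from that fit. The p-values set each difference against the spread between mice. In the main fit that spread was estimated over all 3 groups and drawn toward that of the other genes. A group outside a comparison thus contributes to its SE. All 10 genes were described, and list genes were named where their adjusted p passed in at least 1 comparison (at most 5 per list and comparison). The members and lists were chosen with earlier results of these data known. The genes most like *Pdk4* and *Pdha1* were the 5 tested genes with the smallest root mean square difference. Lengths are those of the longest principal transcript with a consensus coding sequence in GENCODE M21, and promoters are from RefSeq. Scripts were tested on simulated data. Alternatives were other pseudocounts (0.5 and 8), filters (none and 50), scalings, sample weights, a trended variance, fits of 2 groups, edgeR 4.0.16 and DESeq2 1.42.0 on the recovered reads, and leaving out each mouse. No column was left out.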

Additional observations from a re-analysis of the deposited data

How the results depend on the processing

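No paired analysis was possible because the mouse numbers differ between groups. Among all genes, the number that differed between semaglutide + ketone ester and vehicle, 29 in the main fit, was 4 without a filter, 45 by edgeR, 171 by DESeq2, 45 with a trended variance and 205 with sample weights, and 1 to 77 with a mouse left out. The number for the ketone ester against semaglutide alone, 2262 in the main fit, was 4198 with equal totals, 4279 with sample weights, 751 with those 2 groups only and 862 to 3954 with a mouse left out. For semaglutide against vehicle, 3084 became 4847 with sample weights and 2067 to 4447 with a mouse left out. Of the 10 genes, 3 were called for the ketone ester against semaglutide with those 2 groups only, 1 was altered across the groups with equal totals, and 2 to 6 were altered with a mouse left out.

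Signs turned only for differences that had not been called. *Pdk4* under semaglutide was 0.037 by edgeR and 0.032 by DESeq2, *Pdk3* under semaglutide 0.0090 after quantile normalization, and *Mpc2* for the ketone ester against vehicle -0.012 with equal totals. With a mouse left out, *Pdk3* under semaglutide ranged from -0.43 to 0.044 and *Pdp2* from -0.049 to 0.52. For the ketone ester against semaglutide, *Pdk4* ranged from -0.79 to 0.49 and *Pdp2* from -0.43 to 0.19, positive without semaglutide mouse 15, 16 or 17 or ketone ester mouse 21. For the ketone ester against vehicle, *Pdp2* ranged from -0.11 to 0.35, *Pdha1* from -0.063 to 0.24 and *Mpc2* from -0.057 to 0.12. The cause was not tested.

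Depth limited *Pdk3*, with at most 19 reads per mouse, and 3 mice in 1 group limited every comparison with the ketone ester. No test was made of protein, phosphorylation or flux.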
